A study of Mus musculus with 16 samples.

Results

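Cholesterol and fatty acid synthesis was followed through 30 genes, which were matched by name on the array and make up 30 of the 27670 genes and transcripts it names. They are 17 enzymes of the sterol pathway, 4 genes of sterol control and transport, 6 enzymes of fatty acid synthesis, and 3 acyltransferases that start glycerolipid synthesis. All 30 were measured, and all passed the filter on dim probes. The files name Msmo1 as Sc4mol, Gpat2 as A530057A03Rik and Gpat3 as A230097K15Rik.

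RNA came from follicular B cells of C.B17 mice, and each of 8 samples was hybridised in both dye orientations, on 2 arrays, with a reference that mixed the RNA of 6 cell lines (among them J558, EL4 and P388d). Auto.Neg (n = 2) was the ATAμκTg line, whose VH3609μ/Vk21-5κ transgenes encode a receptor against Thy-1, on a Thy-1 knockout background. Auto.Pos (n = 2) was the AGcAμκTg line, whose VH3609μ/Vk19-17κ transgenes encode a receptor against intestinal goblet cells; a further label field gives the light chain as Vkappa17-17kappa. WT (n = 2) was wild type, and Non-edited and Edited (n = 1 each) were VH3609t +/- x Vk21-5Tg +/- cells, both also on the Thy-1 knockout. Auto.Neg and Auto.Pos therefore differ in the light chain and in Thy-1 as well as in the antigen. The labels do not say whether samples 1 and 2 of a group came from separate mice, so p-values measure the spread between these samples, which may be technical.

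Cells make cholesterol from acetyl-CoA by way of mevalonate, squalene and lanosterol, and make fatty acids by way of citrate, malonyl-CoA and palmitate. Srebf1 and Srebf2 encode the SREBP transcription factors, which are held in the endoplasmic reticulum by INSIG proteins when sterols are plentiful and otherwise travel to the nucleus and switch on most genes of both pathways. In B cells these pathways are known for supplying membrane when a stimulated cell grows and divides.

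The bases before the start of transcription were searched for a pair of motifs, since SREBPs are known to act with the factor NF-Y at sterol-regulated promoters. RefSeq promoters (GRCm38.p6) matched 24 of the 30 genes, with 30 promoters among them, and the 250 bases before each start were read on both strands. CCAAT, the core of the NF-Y motif, stood in 21 of these 30 promoters, that is in at least 1 promoter of 20 of the 24 genes, and in 33.8% of all 32851 promoters of the table. TCACNCCAC, a form of the sterol element, stood in the promoter of 1 of the 24 genes, Hmgcs1, and in 1.05% of all promoters. Only exact matches to these letters were counted, and other forms of the element were not searched for. The Hmgcs1 promoter is shown because it holds both motifs, the Insig1 promoter as that of the sterol sensor, and the Gpat2 and Gpat3 promoters because these genes differed most between groups; capitals mark TCACNCCAC, and CCAAT or its complement ATTGG.
Hmgcs1: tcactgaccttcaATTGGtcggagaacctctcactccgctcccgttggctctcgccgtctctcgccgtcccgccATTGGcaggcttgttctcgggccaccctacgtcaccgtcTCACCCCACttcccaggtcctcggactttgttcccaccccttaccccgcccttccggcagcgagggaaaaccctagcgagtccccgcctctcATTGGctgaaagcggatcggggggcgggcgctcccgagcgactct
Insig1: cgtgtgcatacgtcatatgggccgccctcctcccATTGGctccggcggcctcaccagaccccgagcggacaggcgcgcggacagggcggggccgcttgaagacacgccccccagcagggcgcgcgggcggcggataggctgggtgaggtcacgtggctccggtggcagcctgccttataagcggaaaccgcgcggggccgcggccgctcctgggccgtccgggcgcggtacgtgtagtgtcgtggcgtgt
Gpat2: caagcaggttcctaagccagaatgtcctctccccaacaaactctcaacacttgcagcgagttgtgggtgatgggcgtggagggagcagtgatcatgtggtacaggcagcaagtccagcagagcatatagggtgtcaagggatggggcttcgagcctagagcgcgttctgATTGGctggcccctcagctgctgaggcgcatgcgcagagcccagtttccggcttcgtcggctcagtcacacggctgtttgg
Gpat3: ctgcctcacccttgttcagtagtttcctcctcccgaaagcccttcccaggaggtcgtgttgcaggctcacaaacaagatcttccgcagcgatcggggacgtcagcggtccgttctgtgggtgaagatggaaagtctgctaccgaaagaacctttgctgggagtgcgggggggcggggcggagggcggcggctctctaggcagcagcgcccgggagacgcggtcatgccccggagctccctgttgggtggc
They lie on the plus strand at chr13:119690101-119690350, chr5:28071162-28071411, chr2:127424949-127425198 and chr5:100845979-100846228. In Hmgcs1 the sterol element starts 137 bases before the start of transcription. No CCAAT and no TCACNCCAC was found in these bases of Gpat3, which says only that these letters are not in this window.

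Values are given as log2 of the sample's signal over that of the reference, averaged over the dye-swap pair, and they do not rank genes by abundance, since each ratio also depends on the reference. Of all probes, 62.0% to 81.9% were well above background in the sample channel by the scanner software's mark, and the arrays of a dye-swap pair correlated at 0.906 to 0.970. The array with WT sample 2 in Cy3 was brighter than the rest, with median intensities of 735 (Cy3) and 1039 (Cy5) against 92.2 to 287 in either channel of the other arrays. Auto.Neg sample 2 and Auto.Pos sample 1 shared slide 2, and they correlated with each other at 0.978 over all genes, against 0.903 for the 2 Auto.Neg and 0.904 for the 2 Auto.Pos samples. Auto.Neg samples 1 and 2 were scanned on days 4 and 2, and Auto.Pos samples 1 and 2 on days 2 and 3. WT samples 1 and 2 were scanned on days 1 and 3, and Non-edited and Edited on day 4. No day held both Auto.Neg and WT, so group and scan day cannot be told apart in that comparison. The labelled Thy-1 knockout was read by 2 Thy1 probes. The first read from -1.43 to 0.46 in the 4 samples labelled as knockout and from -3.77 to -2.93 in the other 4, so it was higher in the knockouts and separated the samples as labelled; the second read from -4.54 to -3.73 in all 8. Neither shows a loss of signal, and where the probes lie relative to the deleted part is not given in the sources used here. Markers of the labelled cell type were high: the B cell marker list averaged from 4.88 to 5.67 in the 8 samples, above the reference in each.

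Against this reference, 19 of the 30 genes were below it in all 8 samples and 4 were above it in all 8. Of the 17 sterol enzymes 13 were below in all 8 samples. Ebp, the sterol isomerase, was the one sterol enzyme above it throughout, from 0.11 in Edited to 0.75 in WT sample 1. Sqle, the squalene epoxidase, had the lowest mean of the sterol enzymes. Among the fatty acid enzymes Scd1, a stearoyl-CoA desaturase, was the highest, from 1.98 to 4.11. Elovl6, which lengthens palmitate to stearate, was the lowest and the steadiest of the 30, from -5.06 to -4.75. The span over the 8 samples had a median of 1.08 over the 30 genes and reached 2.74 in Gpat3.

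**Figure D1:**
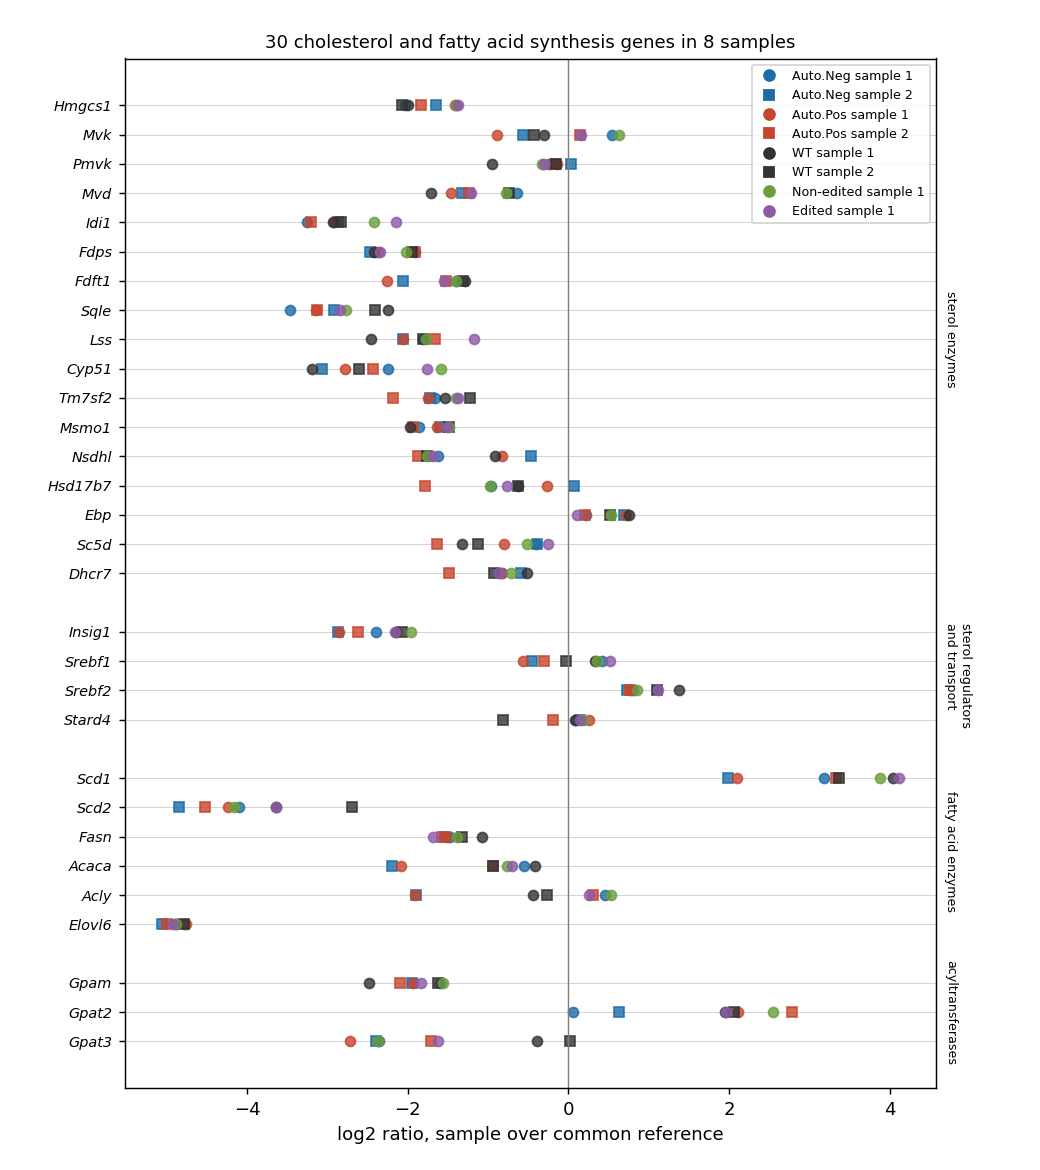
Log2 ratio of sample over common reference (x axis) of the 30 genes (rows, by role) in each of the 8 samples (colour, group; circle, sample 1; square, sample 2). Most sterol enzymes lie left of 0 in every sample, while Scd1 lies between 1.98 and 4.11.

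limma with Benjamini-Hochberg adjustment over 20487 genes called none of the 30 genes at an adjusted p under 0.05 in any of the 3 pairwise comparisons. At an unadjusted p under 0.05, 2 of 30 passed between Auto.Pos and Auto.Neg, 4 of 30 between Auto.Pos and WT, and 5 of 30 between Auto.Neg and WT. Over all genes the adjusted threshold called 3 genes (0.0146%), 0 genes (0%) and 0 genes (0%) in these comparisons, and the unadjusted threshold passed 1.04%, 5.62% and 4.61%. Groups that did not overlap were lower in 3 of 30 genes and higher in 1 of 30 in Auto.Pos against Auto.Neg (8.17% and 11.1% of all genes). They were lower in 11 of 30 and higher in 2 of 30 in Auto.Pos against WT (10.4% and 19.2%), and lower in 10 of 30 and higher in 2 of 30 in Auto.Neg against WT (9.57% and 15.4%). The comparisons share their samples in pairs, so a gene that is high in WT enters both comparisons with WT. The named genes below are described by their values, and none of their differences passed after adjustment.

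**Figure D2:**
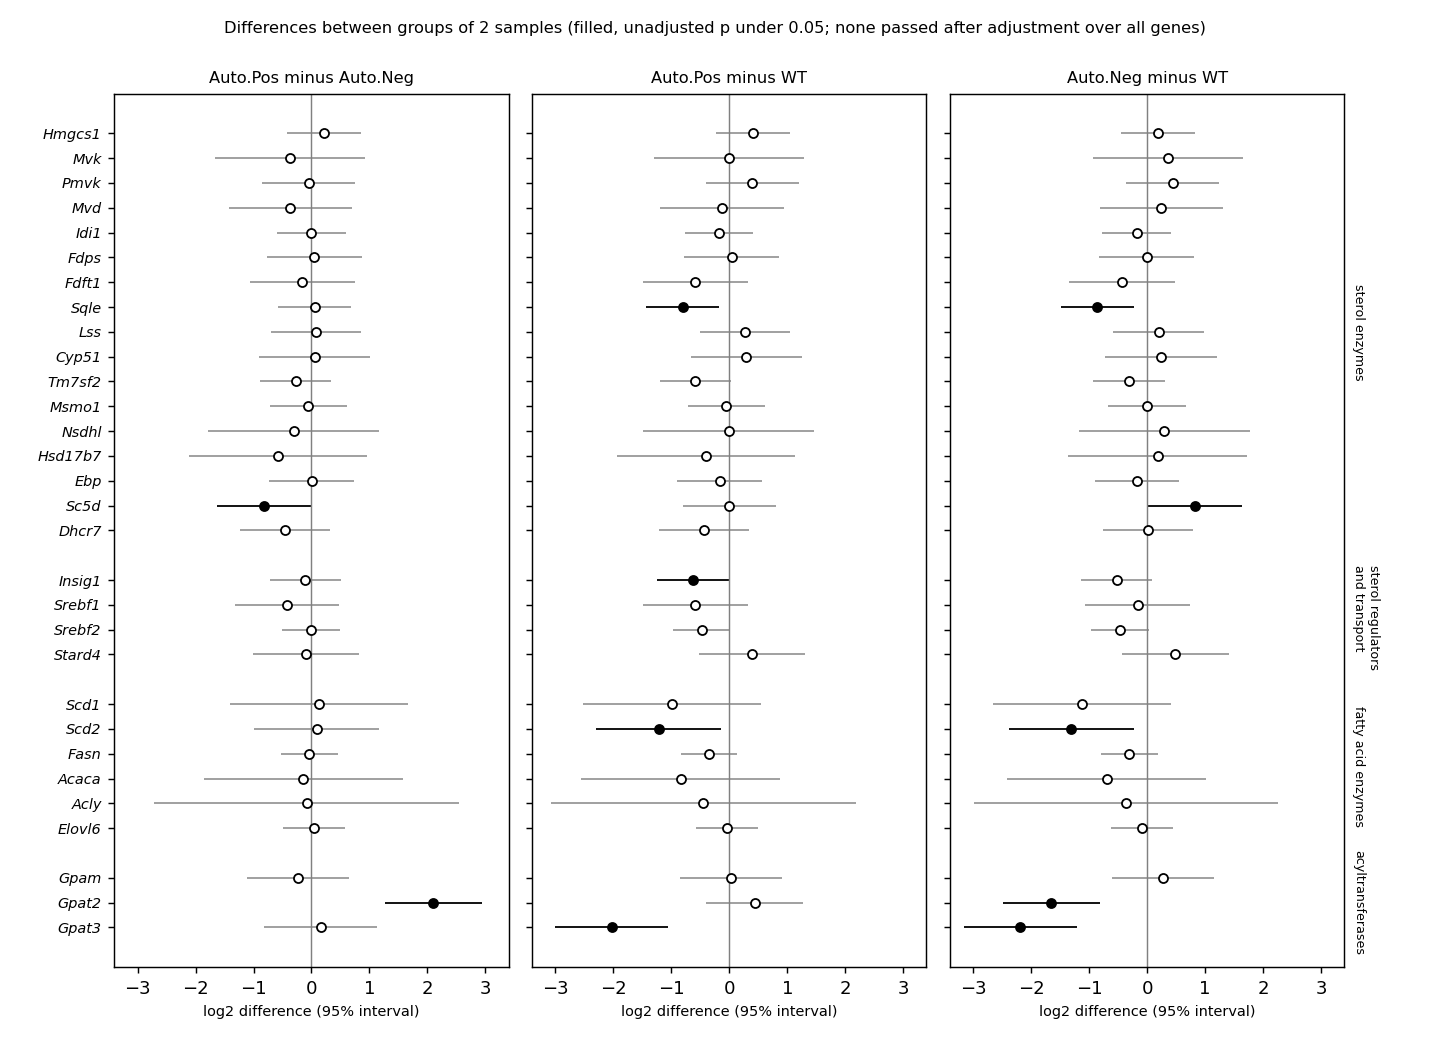
Log2 difference with its 95% confidence interval from limma (x axis) for the 30 genes (rows, by role) in the 3 comparisons of groups with 2 samples each. Filled points had an unadjusted p under 0.05; no gene passed after adjustment over all genes.

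The direction of the sterol enzymes varied with the comparison and with the scaling of the arrays. Their median difference was -0.05 between Auto.Pos and Auto.Neg (7 higher, 10 lower), -0.05 between Auto.Pos and WT (6 higher, 11 lower) and 0.18 between Auto.Neg and WT (10 higher, 7 lower). The medians of all genes tested were 0.02, 0.06 and 0.04. Between Auto.Pos and Auto.Neg 1 was higher and 16 lower with median centring (median -0.17), and 4 were higher and 13 lower with scan day as a random block (median -0.17). The sign of the sterol median against WT changed with single samples and with the scaling of the arrays: it was 0.24 between Auto.Pos and WT with scale normalization between arrays, and -0.10 between Auto.Neg and WT without Auto.Neg sample 2. Hmgcs1, which makes the HMG-CoA from which mevalonate is formed, gave -2.04 and -1.65 for the Auto.Neg samples, -1.41 and -1.83 for the Auto.Pos samples, and -2.00 and -2.07 for the WT samples. The Auto.Pos minus WT difference was 0.41 (SE 0.25), and -0.31 by a second Hmgcs1 probe, the opposite sign.

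Sqle makes the epoxide that is cyclised to lanosterol, and its ratios were -3.46 and -2.91 for the Auto.Neg samples, -3.14 and -3.13 for the Auto.Pos samples, -2.76 for Non-edited, -2.84 for Edited, and -2.25 and -2.40 for the WT samples. Both WT samples were thus above all 6 transgenic samples. Auto.Neg was 1.81-fold below WT (log2 -0.86, SE 0.25, unadjusted p = 0.0173 and adjusted p = 0.917 by limma). Auto.Pos was 1.75-fold below WT (log2 -0.81, unadjusted p = 0.0219 and adjusted p = 0.735 by limma), and within scan day 3, the single day that held both groups, the difference was -0.73. With scale normalization these differences were -0.49 and -0.16. Its probe lies at chr15:59397289-59397348 (mm7, plus strand).

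Sc5d, the lathosterol oxidase near the end of the pathway, read above WT in Auto.Neg by its brightest probe. Auto.Pos did not differ from WT by this probe (log2 difference 0.0025). The Sc5d ratios were -0.41 and -0.40 for the Auto.Neg samples, and -0.81 and -1.63 for the Auto.Pos samples. They were -1.32 and -1.13 for the WT samples, -0.51 for Non-edited and -0.25 for Edited. The 4 samples on the Thy-1 knockout were the 4 highest. The difference between Auto.Pos and Auto.Neg was -0.82 (unadjusted p = 0.0483 and adjusted p = 1.00 by limma), and that between Auto.Neg and WT was 0.82 (unadjusted p = 0.0478, adjusted p = 1.00). A second Sc5d probe gave 0.92 and -0.54 for these comparisons, the opposite sign in both, so the array gives no single direction for this gene. The difference between Auto.Pos and Auto.Neg was -1.23 without Auto.Pos sample 1 and -0.41 without Auto.Pos sample 2.

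Among the regulators, Insig1, which retains the SREBPs in the endoplasmic reticulum and is itself a known SREBP target, gave -2.39 and -2.87 for the Auto.Neg samples, -2.86 and -2.62 for the Auto.Pos samples, -2.14 and -2.07 for the WT samples, -1.96 for Non-edited and -2.16 for Edited. The averages of the Auto.Neg and Auto.Pos samples were below WT, but by this probe the gap was in 1 dye orientation. With the sample in Cy3 the WT samples gave -1.85 and -1.38 and the Auto.Pos samples -3.21 and -2.67, whereas in Cy5 the WT samples gave -2.44 and -2.76 and the Auto.Pos samples -2.51 and -2.56. The orientations of WT sample 2 were 1.37 apart. The Auto.Pos minus WT difference was -0.63 (SE 0.24, unadjusted p = 0.0467 and adjusted p = 0.874 by limma) and -0.55 within scan day 3, and a second Insig1 probe gave -0.56. It was -1.33 with the scanner software's log ratio and -0.25 with scale normalization.

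Srebf2, the SREBP gene that mainly drives sterol enzymes, was above the reference in all 8 samples: 0.80 and 0.73 for the Auto.Neg samples, 0.76 for each Auto.Pos sample, 1.38 and 1.10 for the WT samples, 0.85 for Non-edited and 1.12 for Edited. The differences from WT were -0.48 for Auto.Pos and -0.47 for Auto.Neg and had unadjusted p-values of 0.0569 and 0.0584 by limma. The next brightest probes disagreed: one gave 0.07 and 0.08 for these differences and another -0.93 and -0.87. Srebf1, whose products mainly drive fatty acid enzymes, gave 0.42 and -0.45 for the Auto.Neg samples, -0.57 and -0.30 for the Auto.Pos samples, 0.33 and -0.04 for the WT samples, 0.36 for Non-edited and 0.51 for Edited. Auto.Neg overlapped both other groups. Stard4, a carrier of cholesterol between membranes, ranged from -0.82 in WT sample 2 to 0.25 in Auto.Pos sample 1.

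The 6 fatty acid enzymes all read below WT in both Auto groups, by a median of 0.64 for Auto.Pos (log2 -0.64) and 0.53 for Auto.Neg (log2 -0.53), while Auto.Pos and Auto.Neg differed by a median of 0.01. None was called, and 1 of the 6, Scd2, had an unadjusted p under 0.05 against WT. With the mean over a gene's probes the medians were -0.35 and -0.30, with all 6 lower. With scale normalization 4 of 6 for Auto.Pos and 5 of 6 for Auto.Neg stayed below WT. Without the samples of slide 2 the medians were -0.32 (5 of 6 lower) for Auto.Pos and -0.12 (3 of 6 lower) for Auto.Neg. Within scan day 3, the single day that held both Auto.Pos and WT, the median difference was -0.12. There the 6 genes ranged from -1.83 in Scd2 to 0.58 in Acly, with Scd1 at -0.04 and Acaca at -0.01.

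Scd2, a desaturase isoform abundant in brain, gave -4.10 and -4.84 for the Auto.Neg samples, -4.24 and -4.52 for the Auto.Pos samples, -4.16 for Non-edited, -3.64 for Edited, and -3.63 and -2.69 for the WT samples. Edited lay just below WT sample 1, and WT sample 2 stood well above every other sample. Auto.Neg was 2.48-fold below WT (log2 -1.31, SE 0.42, unadjusted p = 0.0265 and adjusted p = 0.981 by limma). Auto.Pos was 2.33-fold below it (log2 -1.22, unadjusted p = 0.0340, adjusted p = 0.817), and by -1.83 within scan day 3. Without WT sample 2 the differences were -0.84 and -0.75, and with scale normalization they were -0.84 and -0.44. The probe lies at chr19:44200407-44200466 (mm7, plus strand).

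Scd1 gave 3.17 and 1.98 for the Auto.Neg samples, 2.10 and 3.33 for the Auto.Pos samples, 4.03 and 3.37 for the WT samples, 3.88 for Non-edited and 4.11 for Edited. The 2 samples of slide 2 were the lowest. Auto.Neg minus WT was -1.12 (SE 0.60, unadjusted p = 0.119 by limma), and it was -0.53 without slide 2. Acly, which makes cytosolic acetyl-CoA from citrate, gave 0.45 and -1.90 for the Auto.Neg samples, -1.91 and 0.31 for the Auto.Pos samples, and -0.44 and -0.27 for the WT samples, with 0.54 for Non-edited and 0.25 for Edited. Acaca, the acetyl-CoA carboxylase that makes malonyl-CoA, gave -0.55 and -2.20 for the Auto.Neg samples, -2.08 and -0.94 for the Auto.Pos samples, and -0.42 and -0.93 for the WT samples. In both genes the 2 samples of Auto.Neg, and the 2 of Auto.Pos, lay further apart than any pair of group means. Fasn, the fatty acid synthase, read from -1.68 to -1.39 in the 6 transgenic samples and -1.07 and -1.32 in WT, while a second Fasn probe read from -0.99 to -0.38 in the transgenic samples and overlapped WT, at -0.57 and -0.44.

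**Figure D3:**
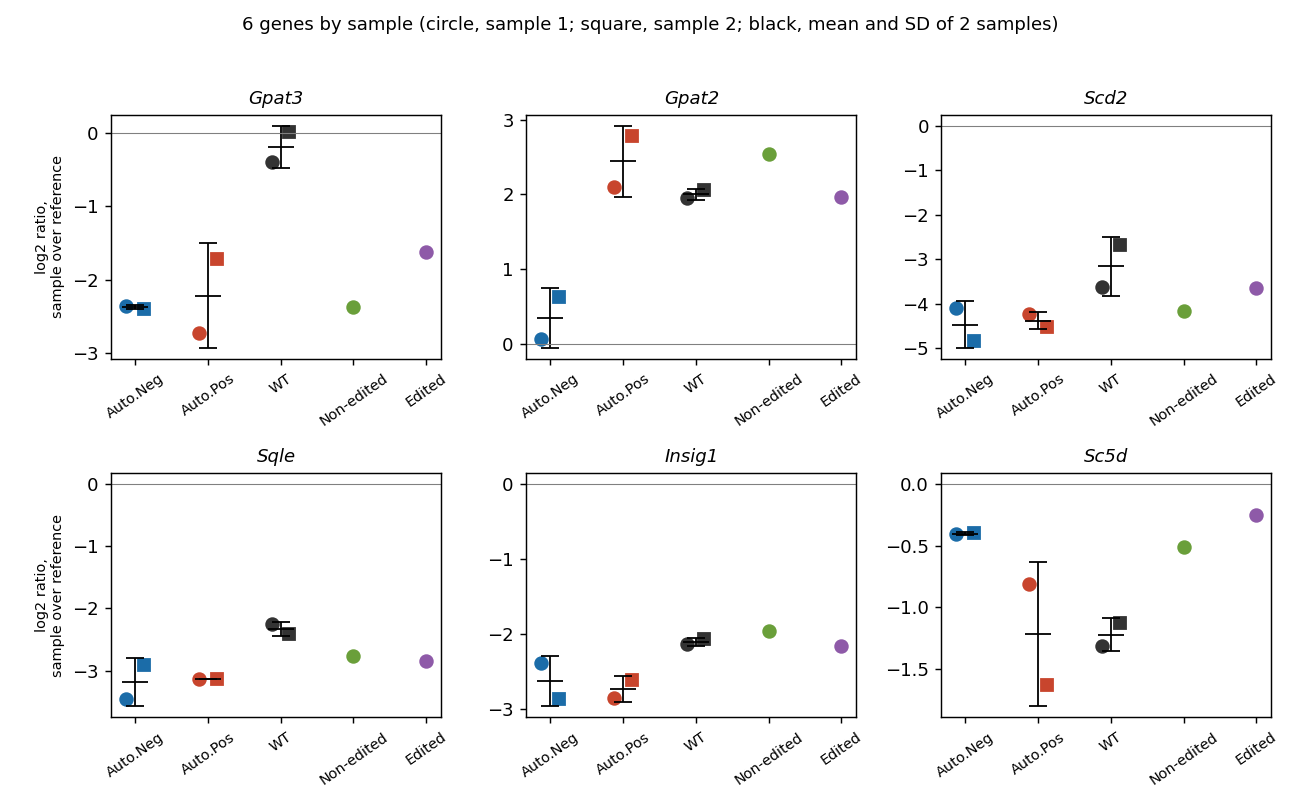
Log2 ratio of sample over common reference (y axes, each with its own scale) of 6 genes in the 5 groups; circles are sample 1, squares sample 2, and black bars give the mean and SD of the groups with 2 samples. Both WT samples of Gpat3 lie above the other 6 samples, and both Auto.Neg samples of Gpat2 lie below them.

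The acyltransferases held the largest differences. Gpat3 encodes a glycerol-3-phosphate acyltransferase of the endoplasmic reticulum, which adds the first fatty acid to glycerol-3-phosphate. Its ratios were -2.35 and -2.40 for the Auto.Neg samples, -2.72 and -1.71 for the Auto.Pos samples, -2.37 for Non-edited and -1.63 for Edited, against -0.40 and 0.02 for the WT samples. All 6 transgenic samples were below both WT samples, by 1.23 log2 at the narrowest gap. Auto.Neg was 4.55-fold below WT (log2 -2.19, SE 0.38, unadjusted p = 0.00215 and adjusted p = 0.433 by limma). Auto.Pos was 4.08-fold below it (log2 -2.03, SE 0.38, unadjusted p = 0.00301 and adjusted p = 0.417 by limma), and by -1.73 within scan day 3.

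A second Gpat3 probe also had both WT samples above the other 6. It gave -2.61 and -3.14 for the Auto.Neg samples, -2.64 and -1.96 for the Auto.Pos samples, -2.27 for Non-edited and -2.54 for Edited, against -1.27 and -0.86 for the WT samples. Its differences from WT were -1.81 for Auto.Neg and -1.24 for Auto.Pos. The probes lie at chr5:100115748-100115807 and chr5:100114805-100114864 (mm7, plus strand). Across 17 alternative settings the difference stayed between -2.43 and -1.55 for Auto.Neg and between -2.53 and -1.52 for Auto.Pos. Several of these settings cannot move it, among them the replicate and scanner protocol blocks and the filters on dim probes. With scan day as a random block, an alternative added after the data had been seen, Gpat3 was called in both comparisons (adjusted p = 0.0440 and 0.00548 by limma; over all alternatives adjusted p ranged up to 1.00).

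Gpat2 encodes a mitochondrial isoform known from testis. Its ratios were 0.06 and 0.63 for the Auto.Neg samples, 2.10 and 2.78 for the Auto.Pos samples, 1.95 and 2.05 for the WT samples, 2.55 for Non-edited and 1.96 for Edited. Auto.Neg was the low group, and Non-edited and Edited, with 1 sample each, read like Auto.Pos and WT. They share the Vk21-5 transgene and Thy-1 knockout of Auto.Neg but differ in the heavy-chain label (VH3609t against VH3609μ). What sets Auto.Neg apart was not tested. Auto.Neg minus WT was -1.66 (SE 0.33, unadjusted p = 0.00367 and adjusted p = 0.583 by limma), and -0.95 with scan day as a random block (adjusted p = 0.0913; from 0.0913 to 1.00 over its alternatives). The difference between Auto.Pos and Auto.Neg was 2.10 (SE 0.33, unadjusted p = 0.00128 and adjusted p = 0.9999 by limma). Its 95% interval, not adjusted, was 1.26 to 2.93 on the log2 scale, and within slide 2 the difference was 1.48. It stayed between 1.59 and 2.72 across its 17 alternatives, uncalled in each. Several of these cannot move it, among them the replicate and scanner protocol blocks and the filters on dim probes. The difference rests on 1 probe (chr2:127176823-127176882, mm7, plus strand), whose dye orientations gave 2.86 and 1.25 in WT sample 2. Gpat2 was the 1 gene of the 30 with both Auto.Neg samples below the other 6, a pattern of 1.14% of genes. Gpam, the mitochondrial isoform under SREBP control, ranged from -2.48 in WT sample 1 to -1.56 in Non-edited.

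The pattern of Gpat3 was then counted over all 30 genes, a count chosen after the values were seen. In 5 of 30 all 6 transgenic samples were below both WT samples, namely Fdft1 (squalene synthase), Sqle, Scd2, Fasn and Gpat3, against 3.83% of all genes. In 0 of 30 they were above both WT samples, against 5.82% of all genes. Of the 5, Gpat3 kept the pattern under all 7 alternatives of scaling, filter and probe choice. Sqle, Scd2, Fasn and Fdft1 lost it with scale normalization between arrays. The filters on dim probes cannot change it in these 5 genes, since they keep the same probes. Scd2 also lost it with the scanner software's log ratio and with median centring, and Fdft1 with median centring. The count of members with it was 3 to 6 under these alternatives. Of the 6 transgenic samples, only Auto.Pos sample 2 was scanned on the same day as a WT sample. For the others, transgene and scan day cannot be told apart.

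Some markers of B cells and of other cells also separated the WT from the transgenic samples. Of 42 measured markers of B cells, T cells, macrophages, neutrophils, erythroid cells and platelets, and plasma cells, 7 were below both WT samples in all 6 transgenic samples, among them Ms4a1, Lck, Adgre1, Sdc1 and Irf4. A further 2, Cd79b and Pax5, were above. The mean ratio of the macrophage list was 2.83 and 2.62 for the WT samples, 2.85 and 2.07 for the Auto.Pos samples, 1.57 and 2.58 for the Auto.Neg samples, 1.21 for Non-edited and 1.65 for Edited. That of the plasma cell list was -1.09 and -0.94 in WT and from -1.94 to -1.07 in the transgenic samples. That of the T cell list was -1.54 and -1.08 in WT and from -1.60 to -1.28 in the transgenic samples. Their part in the lower Gpat3, Scd2 and Sqle ratios was not tested, and in such bulk samples fewer cells of a type and less RNA per cell cannot be told apart. None of the 42 markers had both Auto.Neg samples below the other 6, the pattern of Gpat2. Since 1.14% of all genes had this pattern, a list of 42 is too short for its absence to bear on Gpat2. The part of other cells in the low Gpat2 ratios of Auto.Neg was not tested.

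The slide that was shared by Auto.Neg sample 2 and Auto.Pos sample 1 set its samples apart in many genes of the array, and in some of the 30. By the brightest probe of each gene, both its samples were below the other 6 in 9 genes (Mvk, Fdft1, Insig1, Srebf1, Srebf2, Scd1, Acaca, Acly and Gpat3), against 11.4% of all genes, and above them in 3 (Pmvk, Nsdhl and Hsd17b7), against 27.6% of all genes. The gap was narrow in Srebf2, at 0.762 in Auto.Pos sample 1 and 0.765 in Auto.Pos sample 2. It was also narrow in Gpat3, at -2.396 in Auto.Neg sample 2 and -2.374 in Non-edited. The widest gap was in Acly, where the slide 2 samples averaged -1.90 and the other 6 averaged 0.14. Scd1, with 1 probe, averaged 2.04 on slide 2 and 3.65 elsewhere, and Acaca averaged -2.14 and -0.72. Other probes of these genes did not all show the gap. A second Acaca probe read 0.51 and 0.42 on slide 2 and from 0.07 to 0.18 elsewhere, the other way, and a second Acly probe read 0.08 and -0.23 on slide 2 and from -0.08 to 0.71 elsewhere. For Nsdhl, another probe read -1.79 and -1.98 on slide 2 and from -0.93 to -0.50 elsewhere, the opposite of its brightest. Within slide 2 Auto.Pos minus Auto.Neg had a median of -0.01 over the 30 genes. Slide 2 was the single slide of its scan day, so slide and scan day cannot be told apart for these samples.

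**Figure D4:**
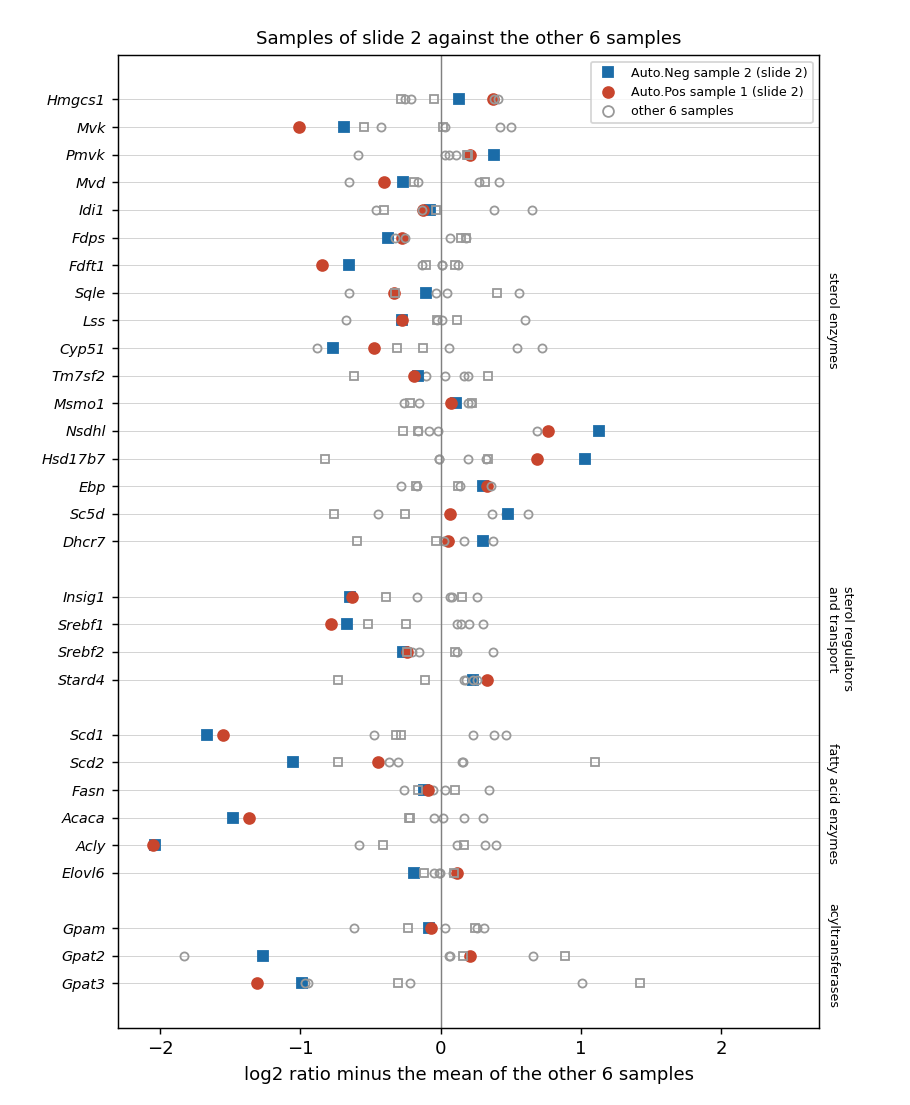
Log2 ratio minus the mean of the 6 samples on other slides (x axis) for the 30 genes (rows, by role). Filled points are the 2 samples of slide 2 and open points the other 6; by the brightest probe of Acly, Acaca and Scd1 the filled points lie together far to the left of the open ones.

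With scan day as a random block limma called 10 of the 30 genes between Auto.Pos and WT, against 20.4% of all genes (4174 genes), 2 of 30 between Auto.Neg and WT (2.21%), and 0 of 30 between Auto.Pos and Auto.Neg (0.19%). Below WT in Auto.Pos were Gpat3, Scd2, Hsd17b7 (a 3-ketosteroid reductase), Tm7sf2 (a sterol C14-reductase), Sqle, Insig1, Dhcr7 (which completes cholesterol), Srebf2 and Idi1 (the isopentenyl diphosphate isomerase), and above it was Stard4. In the fit without the block second probes of Stard4, Idi1 and Srebf2 differed in sign from those used. They gave -0.40 against 0.39 for Stard4 and 0.03 against -0.18 for Idi1. For Srebf2 the second probe gave 0.07 against -0.48, while its further probes kept the sign. The probe used for Idi1 has its mm7 coordinates on chr2, whereas the Idi1 promoter lies on chr13 (GRCm38.p6). Its reading as Idi1 thus rests on the probe's label. The fit used a within-day correlation of 0.917, and scan day 3 is the single day that held both Auto.Pos and WT, with 1 sample of each.

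Between Edited and Non-edited cells no gene of the 30 stood out. None of 29 genes with values in both dye orientations was 2-fold apart in both, against 1.39% of all genes, and with 1 sample each there is no replicate check. By the brightest probe Gpat3 was 0.75 higher in Edited (0.80 and 0.70 in the 2 dye orientations), but its second probe read -2.54 in Edited and -2.27 in Non-edited, the other way. Lss (lanosterol synthase) was 0.60 higher by its brightest probe, while its other 2 probes read lower in Edited (-2.41 against -1.86, and -0.78 against -0.35). The array thus gives no single direction for either gene. Gpat2 and Scd2, with 1 probe each, were 0.59 lower (log2 -0.59) and 0.52 higher in Edited. Ebp had a value in 1 orientation, since 1 Edited spot was marked as an outlier.

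The wider pathways were read from 64 further genes in 4 lists, of which 60 were measured. None was called in the pairwise comparisons by limma. An unadjusted p under 0.05 was reached by 0, 2 and 0 of 60 in Auto.Pos against Auto.Neg, Auto.Pos against WT and Auto.Neg against WT. Of all genes, 1.04%, 5.62% and 4.61% passed this threshold in these comparisons. The 2 genes, named after their values were seen, were Mylip, a ligase that removes the LDL receptor, with 0.54 (unadjusted p = 0.0479, adjusted p = 0.882 by limma), and Fads3, a member of the fatty acid desaturase family, with -0.91 (unadjusted p = 0.0245, adjusted p = 0.758). Against WT, the median difference of the 11 sterol supply genes was 0.11 in Auto.Pos and 0.21 in Auto.Neg. That of the 18 genes of SREBP and LXR control was -0.05 and -0.14, that of the 16 further fatty acid genes 0.08 and -0.09, and that of the 15 glycerolipid genes 0.02 and 0.13. Between Edited and Non-edited 1 of 60 was 2-fold apart in both orientations, against 1.39% of all genes. This was Cpt1a, which admits fatty acids to mitochondria for oxidation (1.13 higher in Edited).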

How the data were processed

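Two-colour Agilent arrays of 8 samples in 16 hybridisations were read from the deposited scanner files. Per the file headers these hold raw spot and background intensity per channel and the software's log10 ratio, written by Agilent Feature Extraction (9.5.1.1, 9.1.1.1 and 9.1.3.1). The deposited series table holds log2 ratios; the submitters' processing notes name limma without a step. RNA was amplified from 100 ng of total RNA, per the labels' protocols.

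In R 4.3.3 with limma 3.58.1, intensities were corrected by normexp (offset 50) and loess-normalized, outlier spots were dropped, and ratios were turned to sample over reference by the labelled dyes. Probes well above background on both arrays of at least 2 samples were kept (29662 of 41174), the brightest per gene was used (20487 genes), and the arrays of a pair were averaged. limma was fitted with 1 mean per group over the 8 samples (3 residual degrees of freedom), and a gene was called at adjusted p under 0.05. Edited and Non-edited were compared by 2-fold in both dye orientations, with no test. The script was tested on simulated data. Probe coordinates are those of the files (mm7).

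Values were printed for Srebf1, Srebf2, Insig1, for genes with an unadjusted p under 0.05, with groups apart by 1 log2 without overlap, or with the highest or lowest mean of a list; a few more are printed as examples of their role. The members and lists were chosen with earlier results of these data known. Sample numbers do not pair the groups: deviations of same-numbered samples correlated at -0.788, 0.252 and -0.279. The number of arrays limits the precision. The series table was compared with the scanner files only. Of its 16 columns 6 had their own labelled array as the closest match, and all 16 followed the order of the scanner file names instead of the labels; its centring is near 0 (column medians from -0.0191 to 0.0176), and 14 columns ran sample over reference against the labelled array.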

Additional observations from a re-analysis of the deposited data

How the results depend on the processing

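Each choice was changed alone, in 17 alternatives. The replicate and scanner protocol blocks cannot change a group difference here, only its test, since each replicated group has 1 sample at each level. Genes called between Auto.Pos and Auto.Neg, 3 in all, numbered 1 with median centring, 0 with scale normalization, without the filter on dim probes and without slide 2, 6 with the scanner protocol as a block and 39 with scan day as a random block; leaving out 1 replicate gave 0 in every case. Between Auto.Pos and WT, 0 became 15 with the scanner software's log ratio, 6 with scale normalization and 4174 with scan day; between Auto.Neg and WT, 0 became 452 with scan day. With the replicate block 0 genes were called in each of the 3 comparisons, and since the numbers do not pair the samples this is no weaker effect.

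The sterol enzyme median between Auto.Pos and WT was -0.29 with median centring, 0.24 with scale normalization, -0.30 with scan day and -0.22 without slide 2, and -0.22 to 0.077 leaving out 1 replicate. Between Auto.Neg and WT it was 0.0146 with the software's log ratio, 0.0106 with the mean over probes, -0.078 with scan day and -0.10 without slide 2, and -0.10 to 0.18 leaving out 1 replicate. The fatty acid enzyme median moved most with single replicates: -0.37 to 0.57 between Auto.Pos and Auto.Neg, -1.24 to -0.32 between Auto.Pos and WT, and -1.53 to -0.12 between Auto.Neg and WT. Sc5d turned to 0.049 between Auto.Pos and Auto.Neg with the mean over its probes, whose 2 probes differ in sign. Among the single-gene differences run under the alternatives, which cover Sc5d, Gpat2, Sqle, Insig1, Scd1, Scd2 and Gpat3, no other turned. Beyond these the cause was not tested. No setting other than scan day called any of the 30 genes. Slide as a block could not be fitted, since 7 slides hold 8 samples, and the series table was not run as an alternative because its columns do not follow its labels.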
